A study of Homo sapiens with 6 samples.

Results

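The RAB GTPase genes were followed by exon counts of RNA enriched for new transcripts, in melanoma cells with and without added PRL3. They were taken as the protein-coding genes whose symbol is RAB, a number and at most 1 letter, which leaves out genes named after RAB partners such as the RAB3GAP and RAB11FIP genes. The rule used names and no measured value, and it gave 63 of the 58243 gene identifiers in the count data. All 63 had an entry, 54 passed the filter on low counts and were tested, and 9 did not pass. The experiment used A375, a human melanoma cell line, as 1 stable line transfected with an empty vector (EV, 3 libraries: B1, B2 and B3) and 1 stable line transfected with an expression plasmid for HA-tagged human PRL3 (3 libraries: B9, B10 and B11). Both lines were kept under hygromycin B and were given 500 µM 4-thiouridine (4sU), a uridine analogue, for 20 min, after which the labelled RNA was biotinylated and pulled down (4sU-seq). No source used here says whether the libraries of a line came from separate cultures, so p-values measure the spread between these libraries, which may be technical. PRL3 is a phosphatase, and the question behind the libraries was how it affects transcription, including that of genes of membrane traffic.

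RAB proteins are small GTPases of the RAS superfamily that mark membranes and direct vesicle budding, transport, tethering and fusion. A guanine nucleotide exchange factor (GEF) loads a RAB with GTP on its membrane, effectors bind this active form, and a GTPase-activating protein (GAP) switches it off. Rab escort proteins (REP) present new RABs to geranylgeranyl transferase for prenylation, and GDP dissociation inhibitors (GDI) take inactive RABs off membranes for reuse. In pigment cells a group of RABs serves the melanosome, a lysosome-related organelle.

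The deposited values are counts of reads on annotated exons per gene. The study itself turned to intronic reads, to be sure of nascent transcripts and free of splicing effects or carried-over mRNA. Exon counts do not have this safeguard, so a lower count here is not shown to be lower transcription. Between 36532207 and 57952035 reads were counted per library, and values below are normalized counts, that is counts divided by the TMM-scaled library size and multiplied by the mean of these sizes over the 6 libraries. Reads with a unique alignment but on no annotated exon made up 28.7 to 41.1% of uniquely aligned reads in EV libraries and 62.8 to 69.1% in PRL3 libraries, a difference that moves with the groups. Its part in the results on RAB genes was not tested. PTP4A3, the gene of PRL3, had 132, 176 and 307 counts in EV B1, B2 and B3 and 21687, 38659 and 20584 counts in PRL3 B9, B10 and B11, so every library matched its label. Of the melanocyte markers, SOX10 had 10590 to 28360 normalized counts and MITF 1208 to 1809, whereas PMEL had at most 60.0, TYRP1 at most 24.1, DCT at most 10.7, MLANA at most 2.06 and TYR at most 0.91. SOX10 and MITF, transcription factors of the melanocyte lineage, were present in every library. PMEL was low, and MLANA, TYR, TYRP1 and DCT had too few counts to pass the filter. Of the 17 markers of melanocytes, fibroblasts, leukocytes and epithelia, 7 were not tested (MLANA, TYR, TYRP1, DCT, PTPRC, CD3E and KRT5). Of the rest, 3 were lower in PRL3 libraries (SOX10, COL1A2 and KRT14) and 0 were higher by edgeR at an adjusted p of 0.05. DESeq2 and limma-voom also called 0 higher, and 1 was higher at an unadjusted p under 0.05. With edgeR, lower calls made up 31.7% of protein-coding genes and higher calls 15.1%. Whether the markers differ from these shares was not tested. The 3 epithelial markers summed to 1085 to 1228 normalized counts in EV and 373 to 630 in PRL3 libraries, nearly all from KRT14, with KRT5 at most at 4.29. The 4 fibroblast markers summed to 183 to 250 in EV and 83.4 to 118 in PRL3 libraries, and the 3 leukocyte markers to 75.5 to 141 and 80.4 to 84.7.

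The stretches of genome below were picked after the values were seen, RAB1B because it had the lowest fold change among the tested RAB genes, and the RAB4 and RAB5 genes because the ratios of RAB4A to RAB4B and of RAB5A to RAB5C lay on opposite sides of 1 in the groups, as described further on. They are the 250 bases before the most upstream RefSeq start of each gene, read 5′ to 3′ on the strand of the gene (GRCh38.p14). RAB5B also has a RefSeq start further downstream, which is not shown. Capitals mark matches, on either strand, to CACGTG (the E-box core of the element shared by many lysosomal genes), TCATGTG (the M-box bound by MITF), CCAAT (the CCAAT box), TATAAA (the TATA box) or GGGCGG (the GC box). The stretches lie at chr11:66268389-66268638 (plus strand), chr1:229270861-229271110 (plus), chr19:40777997-40778246 (plus), chr3:19946847-19947096 (plus), chr12:55973699-55973948 (plus) and chr17:42154990-42155239 (minus).
RAB1B: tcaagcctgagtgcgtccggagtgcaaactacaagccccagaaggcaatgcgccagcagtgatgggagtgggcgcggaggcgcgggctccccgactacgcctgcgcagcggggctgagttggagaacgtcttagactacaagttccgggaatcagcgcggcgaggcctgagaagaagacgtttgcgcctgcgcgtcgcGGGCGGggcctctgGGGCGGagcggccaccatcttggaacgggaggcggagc
RAB4A: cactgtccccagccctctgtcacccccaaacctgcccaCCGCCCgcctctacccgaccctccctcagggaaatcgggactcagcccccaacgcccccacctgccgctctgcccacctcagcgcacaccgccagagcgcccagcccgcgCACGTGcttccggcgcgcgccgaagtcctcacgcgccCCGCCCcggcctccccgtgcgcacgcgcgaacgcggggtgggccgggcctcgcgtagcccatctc
RAB4B: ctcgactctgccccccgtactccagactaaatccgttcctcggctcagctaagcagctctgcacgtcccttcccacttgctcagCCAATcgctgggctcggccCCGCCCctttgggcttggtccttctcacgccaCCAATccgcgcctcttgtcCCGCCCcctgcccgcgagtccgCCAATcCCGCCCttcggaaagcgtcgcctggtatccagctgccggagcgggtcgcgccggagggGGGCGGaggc
RAB5A: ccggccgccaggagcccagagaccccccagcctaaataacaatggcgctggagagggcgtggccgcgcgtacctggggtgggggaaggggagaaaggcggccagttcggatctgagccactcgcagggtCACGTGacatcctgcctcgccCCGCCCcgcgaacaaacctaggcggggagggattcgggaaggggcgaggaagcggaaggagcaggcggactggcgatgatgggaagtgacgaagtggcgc
RAB5B: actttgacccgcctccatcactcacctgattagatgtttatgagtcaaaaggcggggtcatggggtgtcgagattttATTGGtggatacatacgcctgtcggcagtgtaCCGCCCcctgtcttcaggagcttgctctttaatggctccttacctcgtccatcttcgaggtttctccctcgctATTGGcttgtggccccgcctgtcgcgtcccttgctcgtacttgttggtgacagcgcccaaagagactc
RAB5C: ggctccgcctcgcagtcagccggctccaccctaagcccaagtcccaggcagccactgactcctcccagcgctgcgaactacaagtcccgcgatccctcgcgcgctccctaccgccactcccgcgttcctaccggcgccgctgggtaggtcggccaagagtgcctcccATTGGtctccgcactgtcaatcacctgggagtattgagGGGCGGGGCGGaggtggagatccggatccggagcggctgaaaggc
CACGTG was found 102 bases before the start of RAB4A and 121 bases before that of RAB5A, and in none of the stretches of RAB1B, RAB4B, RAB5B and RAB5C. CCAAT was found in those of RAB4B, RAB5B and RAB5C, and GGGCGG in all 6, where a pair of matches in RAB5C overlaps by 1 base. Promoters of 300 bases (250 before to 50 after the start) were on hand from RefSeq for 50 of the 63 RAB genes, 71 promoters in all. CACGTG occurred in 6 of the 71 (8.45%) and in 8.35% of 21613 promoters of protein-coding genes. TCATGTG occurred in 1 (RAB17) against 2.31%, TATAAA in 6 against 9.45%, CCAAT in 22 (31.0%) against 34.9% and GGGCGG in 52 (73.2%) against 56.8%. These matches are letters in a window and not shown binding sites.

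More RAB genes were lower than higher in PRL3 libraries. Of the 54 tested, 25 were lower (46.3%), 3 were higher (5.56%) and 26 passed no threshold, by edgeR's quasi-likelihood test at an adjusted p of 0.05. Over all 14443 protein-coding genes tested, 31.7% were lower and 15.1% higher, and over all 23884 genes 22.7% were lower and 19.9% higher. The median log2 fold change of the RAB genes was -0.54, with a range from -1.84 to 0.76, beside -0.15 for protein-coding genes and 0.11 for all genes. The 3 PRL3 libraries all lay below the 3 EV libraries for 29 of the 54 RAB genes and above them for 5, where the shares over protein-coding genes were 36.7% and 22.2%. A gene without overlap has p = 0.1 in the two-sided exact permutation test of its normalized counts, the smallest p that this design allows. In 12 of the 25 lower genes the log2 fold change was below -1. In bulk RNA, a loss in some cells and a smaller loss in every cell cannot be told apart.

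The scaling of the libraries moved these counts. With library size alone 13 RAB genes were lower and 12 higher, and with scaling to all uniquely aligned reads 31 were lower and 0 higher (0 also at an unadjusted p under 0.05). The 12 lower calls lost with library size alone were RAB2A, RAB2B, RAB4A, RAB5B, RAB6A, RAB7A, RAB9A, RAB10, RAB11B, RAB14, RAB20 and RAB31. Upper-quartile scaling and a fit on protein-coding genes alone each called RAB4B and RAB6B higher as well, 5 in all, and RAB2A and RAB10 no longer lower. The median of the RAB genes was below 0 under every scaling tried, from -1.03 to -0.04. Its difference from the median of protein-coding genes stayed between -0.34 and -0.45 under every scaling, tool, filter and left-out library. A change of scaling shifts both medians by nearly the same amount, so this difference could hardly move with it and is no test of scaling. As a share of all reads counted on genes, RAB genes took 1979 to 2066 CPM in EV libraries and 1695 to 1750 CPM in PRL3 libraries, without overlap. This sum leans on its most abundant members. RAB1B and RAB34 made up 14.3 ± 2.05% and 10.2 ± 0.932% of RAB reads in EV libraries. In PRL3 libraries they made up 6.57 ± 0.807% and 5.01 ± 0.677% (SD, n = 3). A sum without them was not computed, so the lower sum does not show a fall in the share of the other RAB genes.

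**Figure D1:**
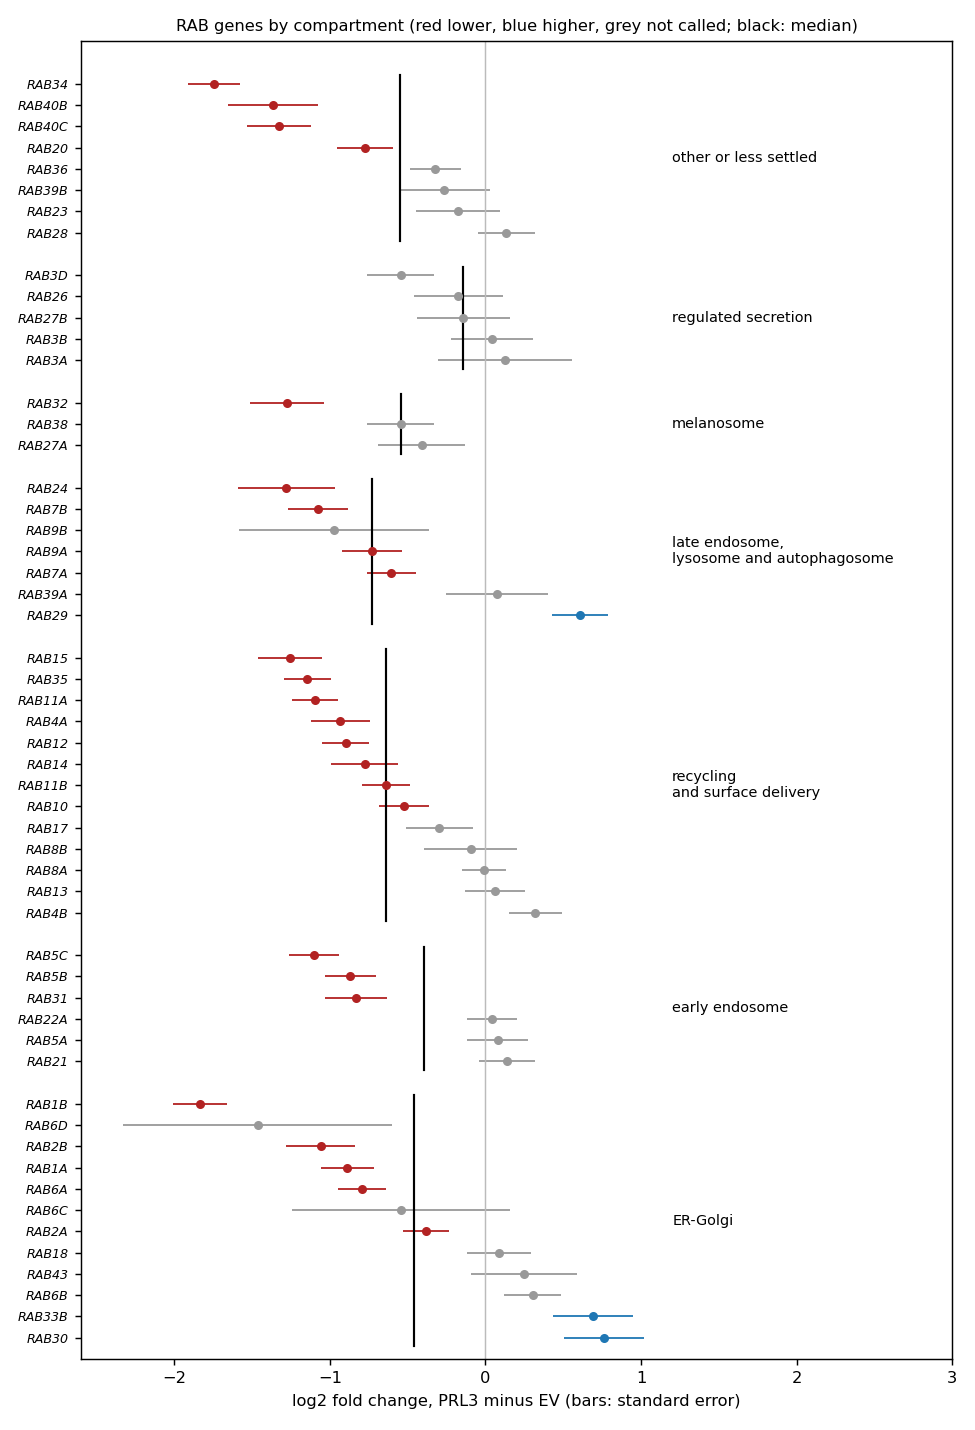
Log2 fold change of PRL3 against EV for the 54 RAB genes tested (x axis) by compartment (y axis), with the standard error as a bar, lower calls in red, higher calls in blue and the median of each compartment as a black line. Medians run from -0.73 for the late endosome, lysosome and autophagosome to -0.14 for regulated secretion, and with scaling by library size alone those of ER-Golgi, early endosome and regulated secretion turn positive (0.04, 0.10 and 0.34).

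The lower calls were more frequent among the abundant RAB genes. When the protein-coding genes tested were split into tertiles by mean counts per kb of exon over all 6 libraries, 11.6% of the genes with the lowest levels, 27.0% of those with middle levels and 56.5% of those with the highest levels were lower in PRL3. Of the RAB genes, 3 of 19 in the lowest tertile were lower (15.8%), 8 of 18 in the middle (44.4%) and 14 of 17 in the highest (82.4%). The median log2 fold changes of the RAB genes in these tertiles were -0.27, -0.25 and -0.77, beside 0.11, -0.04 and -0.56 for protein-coding genes. Across the 54 RAB genes, Spearman's rho of the log2 fold change was -0.27 with mean level per kb and 0.20 with gene span, beside -0.33 and 0.30 across 14443 protein-coding genes. These correlations are across genes of the same 6 libraries, which are not independent replicates.

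**Figure D2:**
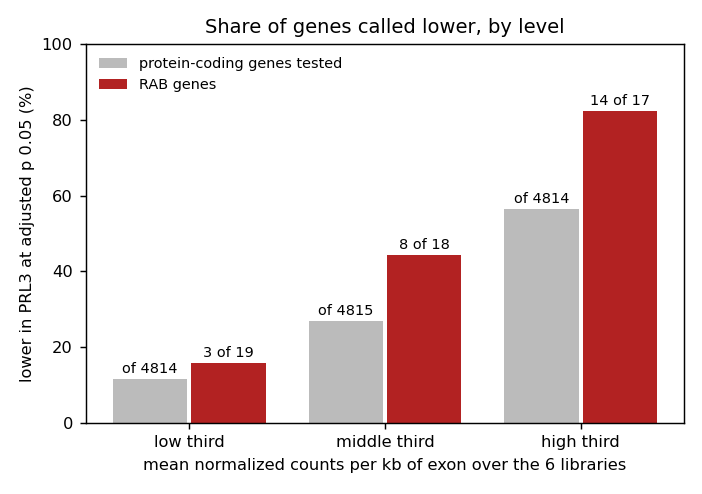
Share of genes lower in PRL3 at an adjusted p of 0.05 (y axis, %) by tertile of mean normalized counts per kb of exon over the 6 libraries (x axis), for protein-coding genes (grey) and RAB genes (red, with counts above the bars). The share rises from 11.6 to 56.5% in protein-coding genes and from 15.8 to 82.4% in RAB genes.

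The levels of RAB genes spanned several orders of magnitude. Per kb of exon, RAB1B stood first in EV libraries with 8240 ± 1179 normalized counts (SD, n = 3), followed by RAB34 with 3494 ± 412, RAB20 with 2225 ± 308, RAB1A with 1635 ± 252 and RAB7A with 1634 ± 196. RAB1A and RAB7A, and RAB10 next to them with 1531 ± 222, did not differ beyond their SD. At the low end of the tested genes stood RAB9B (10.2 ± 1.54), RAB6C (8.14 ± 2.48) and RAB6D (6.17 ± 3.25). RAB41 had 0 counts in all 6 libraries, which allows up to 0.0821 CPM in the shallowest library, a limit for counting error alone. The other 8 untested genes, RAB3C, RAB19, RAB25, RAB33A, RAB37, RAB40A, RAB42 and RAB44, had at most 52 counts in any library. RAB42 had 0 counts in all EV libraries and 9, 5 and 3 in PRL3 B9, B10 and B11. RAB44 had 4, 4 and 7 counts in EV B1, B2 and B3 and 1, 0 and 0 in the PRL3 libraries.

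**Figure D3:**
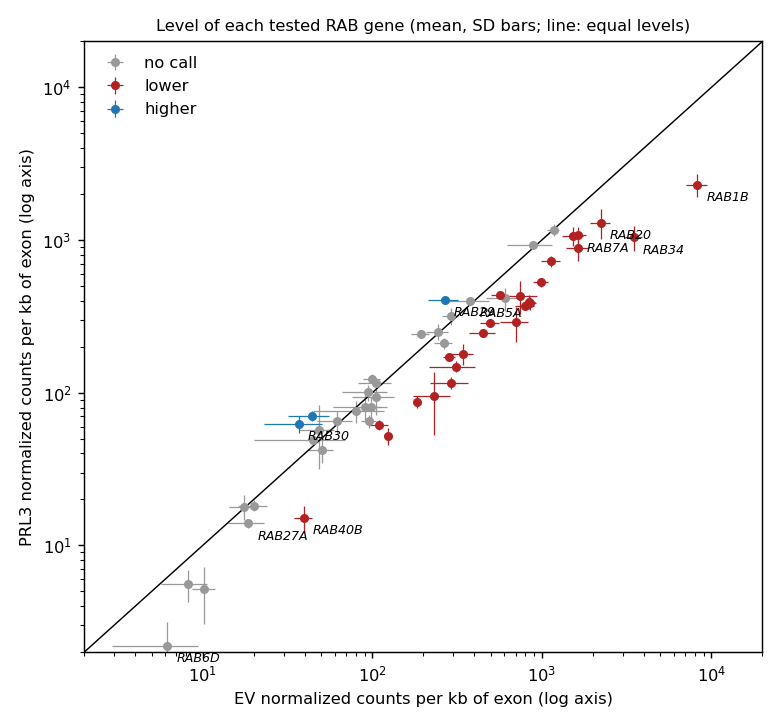
Mean normalized counts per kb of exon in EV (x axis) and PRL3 libraries (y axis) for the 54 RAB genes tested, on log axes with SD bars (n = 3) and a line of equal levels. RAB1B, RAB34 and RAB20, the most abundant genes, lie below the line, and the 3 genes higher in PRL3 (blue) lie above it.

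At the ER and Golgi, 5 of 12 tested genes were lower and 2 were higher, with a median log2 fold change of -0.46 (0.04 with library size alone). This count and those of the other compartments stand beside 31.7% lower and 15.1% higher over the protein-coding genes tested. RAB1B, which with RAB1A controls transport from the ER to the Golgi (chromosome 11 of GRCh38, 66268590 to 66277492), had 14330, 18680 and 15200 normalized counts in EV B1, B2 and B3 and 3897, 5372 and 4239 in PRL3 B9, B10 and B11. The groups were far apart, and the log2 fold change of -1.84 (standard error 0.17, edgeR adjusted p = 1.08e-05) was the lowest of all RAB genes called. RAB1A (chromosome 2, 65070696 to 65130331) had 6372, 5058 and 4821 in EV and 2374, 3055 and 3342 in PRL3, a log2 fold change of -0.89 (standard error 0.17, edgeR adjusted p = 0.00102). RAB6A, which acts in retrograde transport through the Golgi, fell from 2425 ± 322 to 1397 ± 66.5 (SD, n = 3), whereas its paralog RAB6B had 603 ± 71.9 and 744 ± 58.1 and did not pass the threshold (edgeR adjusted p = 0.2). RAB6C and RAB6D are near-copies of RAB6A whose reads could not always be placed, since reads aligning to several places were not counted. They had 12.7 to 33.7 and 4.12 to 33.7 normalized counts per library, with standard errors of 0.70 and 0.86 on their log2 fold changes, and passed no threshold. RAB2B, of the ER-Golgi intermediate compartment, had a log2 fold change of -1.06 and RAB2A one of -0.38, just inside the threshold (edgeR adjusted p = 0.0494) and outside it without EV B1 or any PRL3 library. With library size alone its direction turned (0.11). RAB30 and RAB33B, Golgi RABs also linked to autophagy, were the higher pair. RAB30 had 436, 271 and 597 in EV and 662, 712 and 837 in PRL3 (log2 fold change 0.76, standard error 0.26), and RAB33B had 257, 147 and 216 in EV and 320, 364 and 317 in PRL3 (0.69, standard error 0.26). The groups lay close together in both, EV B2 was the lowest library, and each call was lost without EV B2, PRL3 B9, B10 or B11 (log2 fold changes of 0.53 and 0.51 without EV B2). RAB18, of the ER and lipid droplets, and RAB43 had log2 fold changes of 0.09 and 0.25 and no call. RAB43 shares 79.3% of its exon bases with the readthrough gene ISY1-RAB43 on the same strand, so reads on the shared bases are ambiguous and its value is uncertain.

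Among the 6 RABs of the early endosome, 3 were lower and 3 passed no threshold, with a median log2 fold change of -0.40 (0.10 with library size alone). The RAB5 paralogs were divided between these. RAB5 proteins drive homotypic fusion of early endosomes. RAB5C (chromosome 17, 42124978 to 42155044) had 2393, 2347 and 1874 normalized counts in EV B1, B2 and B3 and 1072, 1008 and 997 in PRL3 B9, B10 and B11 (log2 fold change -1.10, standard error 0.16, edgeR adjusted p = 0.000129). RAB5B (chromosome 12, 55973913 to 55996683) had 3469, 2914 and 2439 in EV and 1698, 1610 and 1522 in PRL3 (log2 fold change -0.87, standard error 0.16). RAB5A (chromosome 3, 19947097 to 19985175) had 1885, 1130 and 1270 in EV and 1555, 1437 and 1530 in PRL3 (log2 fold change 0.08, standard error 0.19, edgeR adjusted p = 0.777). The PRL3 values of RAB5A all lay inside the EV range, while those of RAB5B and RAB5C lay below it. RAB5C shares 28.8% of its exon bases with an unnamed gene on the same strand. RAB31, which acts between early endosomes and the trans-Golgi network, fell from 599 ± 75.7 to 336 ± 25.4 (SD, n = 3), with a log2 fold change of -0.83. RAB21, known for integrin traffic, and RAB22A had log2 fold changes of 0.14 and 0.04, with groups that overlapped.

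Recycling endosomes and delivery to the cell surface gave the largest number of lower genes, 8 of 13 tested, with 0 higher (0 also by DESeq2, by limma-voom and at an unadjusted p under 0.05) and a median log2 fold change of -0.64. RAB11A, the RAB of slow recycling (chromosome 15, 65726054 to 65891989), had 5176, 4414 and 4755 normalized counts in EV and 2028, 2190 and 2502 in PRL3 (log2 fold change -1.09, standard error 0.15, edgeR adjusted p = 7.61e-05). RAB11B had 2403, 2998 and 2449 in EV and 1634, 1842 and 1556 in PRL3 (log2 fold change -0.64, standard error 0.16). The libraries were separated in both, and the call of RAB11B was lost with library size alone (-0.15). RAB35, of fast recycling and cytokinesis, had 3316, 3721 and 3201 in EV and 1418, 1710 and 1504 in PRL3 (log2 fold change -1.14). RAB15, of early and recycling endosomes, had 614, 594 and 637 in EV and 263, 286 and 222 in PRL3 (-1.26). RAB12, which routes transferrin receptor to degradation, had 2639, 2512 and 2172 in EV and 1218, 1330 and 1382 in PRL3 (-0.90). In each of these 3 the lowest EV library stood well above the highest PRL3 library. RAB14 (-0.77), RAB10 (-0.52) and RAB4A (-0.93) were also lower. The calls of RAB14 and RAB10 were lost without PRL3 B9, and that of RAB10 also without B11 (-0.45). RAB8A, of exocytosis and the primary cilium, had 5466, 5546 and 6326 in EV and 5969, 6097 and 5185 in PRL3, with overlapping groups and a log2 fold change of -0.01 (standard error 0.14). RAB8B (-0.09), RAB13 of epithelial junctions (0.06), RAB17 (-0.30) and RAB4B (0.32, edgeR adjusted p = 0.151) passed no threshold. RAB4B shares 27.3% of its exon bases with RAB4B-EGLN2 and 25.8% with MIA-RAB4B on the same strand.

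**Figure D4:**
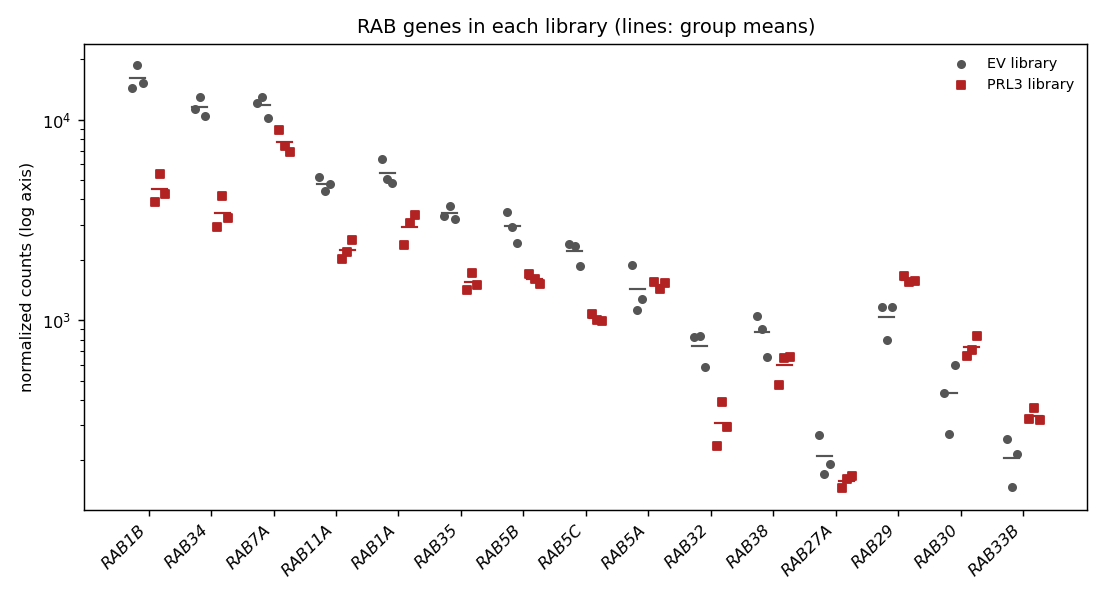
Normalized counts of 15 RAB genes (x axis) in each EV library (circles) and each PRL3 library (squares), on a log y axis with lines at the group means. EV and PRL3 libraries of RAB1B and RAB34 stand far apart, those of RAB5A and RAB38 overlap, and RAB29, RAB30 and RAB33B lie higher in PRL3.

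Of 7 RABs of late endosomes, lysosomes and autophagosomes, 4 were lower and 1 was higher, with a median log2 fold change of -0.73. RAB7A, which governs fusion with lysosomes (chromosome 3, 128693669 to 128825942), had 12160, 12910 and 10190 normalized counts in EV and 8870, 7409 and 6902 in PRL3 (log2 fold change -0.61, standard error 0.16, edgeR adjusted p = 0.00703). Its libraries did not overlap, but the call was lost without PRL3 B11 (-0.52). RAB7B, of transport from endosomes to the trans-Golgi network, fell more, from 677 ± 28.6 to 321 ± 28.4 (SD, n = 3, -1.08). RAB9A, of mannose 6-phosphate receptor retrieval, fell from 600 ± 50.6 to 362 ± 7.19 (-0.73). RAB24, an autophagosomal RAB, had 401, 615 and 417 in EV and 125, 292 and 170 in PRL3 (-1.28, standard error 0.31), and it shares 44.8% of its exon bases with MXD3 on the same strand. RAB29, a RAB of the trans-Golgi network and lysosome known for recruiting the kinase LRRK2, went the other way, with 1159, 799 and 1168 in EV and 1654, 1543 and 1572 in PRL3 (0.61, standard error 0.18, edgeR adjusted p = 0.0145). All PRL3 libraries of RAB29 lay above the EV libraries, and the call was lost without PRL3 B9 and with scaling to all uniquely aligned reads (0.14). RAB9B (-0.97, standard error 0.61) and RAB39A (0.07) passed no threshold.

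Of the 3 melanosome RABs, 1 was lower, and their median log2 fold change was -0.54. RAB32 and RAB38 deliver pigment enzymes to maturing melanosomes, and RAB27A links melanosomes to the actin motor myosin Va through melanophilin. RAB32 (chromosome 6, 146543833 to 146554953) had 823, 831 and 585 normalized counts in EV and 237, 392 and 293 in PRL3 (log2 fold change -1.28, standard error 0.24, edgeR adjusted p = 0.000821). RAB38 had 1052, 900 and 656 in EV and 478, 650 and 658 in PRL3 (-0.54, standard error 0.22, edgeR adjusted p = 0.0569). RAB27A had 268, 171 and 193 in EV and 145, 162 and 168 in PRL3 (-0.41, standard error 0.28, edgeR adjusted p = 0.261). RAB32 was thus the only one of the 3 to pass the threshold, EV B3 of RAB38 lay among its PRL3 libraries, and the PRL3 libraries of RAB27A lay just under those of EV. Whether the 3 fold changes differ from each other was not tested. RAB38 passed the threshold with DESeq2 (-0.59), RLE scaling, all uniquely aligned reads or 1 count in any library as the filter, and without EV B3 (-0.72).

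The RABs of regulated secretion had no call. Of 5 tested (RAB3A, RAB3B, RAB3D, RAB26 and RAB27B, which serve synaptic and secretory vesicles), 0 were lower and 0 higher with edgeR, and the median log2 fold change was -0.14 (0.04 after upper-quartile scaling, 0.34 by library size alone, 0.03 for a fit on protein-coding genes and 0.01 when EV B3 was left out). RAB3D had an unadjusted p under 0.05 and was called lower by DESeq2 and by limma-voom. It had 374, 425 and 455 normalized counts in EV and 317, 279 and 263 in PRL3 (log2 fold change -0.55, standard error 0.22, edgeR adjusted p = 0.0567). These genes were expressed at a low level, from 17.4 normalized counts per kb of exon in EV for RAB3B to 105 for RAB26, with standard errors of 0.22 to 0.43 on the log2 fold change, so smaller differences than these errors allow were not detectable.

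Among the RABs with other or less settled places, 4 of 8 were lower and 0 were higher, with 0 higher also by DESeq2, by limma-voom and at an unadjusted p under 0.05. RAB34, of the Golgi, lysosome positioning and ciliogenesis (chromosome 17, 28714281 to 28718429), had 11230, 13030 and 10370 normalized counts in EV and 2927, 4144 and 3247 in PRL3 (log2 fold change -1.75, standard error 0.17, edgeR adjusted p = 1.23e-05). RAB40B and RAB40C, whose SOCS box joins them to a Cullin ubiquitin ligase, had log2 fold changes of -1.37 and -1.33. RAB40C had 1122, 1566 and 972 in EV and 457, 540 and 461 in PRL3. RAB20, a RAB of phagosome maturation, had 3014, 3881 and 3164 in EV and 1538, 2400 and 1949 in PRL3 (-0.77), and its call was lost with library size alone (-0.29). In all 4 the groups were separated, most widely in RAB34. RAB36 (-0.32), RAB39B (-0.27), RAB23 of ciliary Hedgehog signalling (-0.18) and RAB28 (0.13) passed no threshold.

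Shares within a library are free of any scaling between libraries. RAB1B took 12.1, 16.1 and 14.6% of all reads counted on RAB genes in EV B1, B2 and B3 and 5.92, 7.47 and 6.31% in PRL3 B9, B10 and B11. RAB34 went from 10.2 ± 0.932% to 5.01 ± 0.677% (SD, n = 3). RAB8A, with the largest gain, went from 5.16 ± 0.794% to 8.42 ± 0.680%, RAB13 from 2.14 ± 0.532% to 3.72 ± 0.221% and RAB29 from 0.929 ± 0.219% to 2.33 ± 0.184%. Of the 54 tested genes, 11 had a lower share in every PRL3 library than in every EV library, 19 a higher one and 24 overlapped. No such count was made over other sets of genes. The shares in a library have a fixed sum, so a gain need not mean more reads. RAB8A had a log2 fold change of -0.01 in normalized counts. The ER-Golgi RABs went from 27.6 ± 0.775% to 22.5 ± 1.43% of RAB reads, those with other or less settled places from 16.9 ± 1.38% to 12.2 ± 1.35%, those of recycling and surface delivery from 30.1 ± 1.63% to 34.5 ± 0.293%, those of the early endosome from 9.83 ± 1.14% to 12.7 ± 1.15%, those of late endosomes from 13.0 ± 0.488% to 15.2 ± 1.95%, and those of regulated secretion from 1.01 ± 0.167% to 1.42 ± 0.120%. The groups did not overlap in these 6 compartments, with an exact permutation p of 0.1 (two-sided) for each, the lowest possible with 3 libraries in each group. Melanosome RABs took 1.61 ± 0.218% and 1.55 ± 0.210%, with overlap. RAB1B alone changed by -7.7 points of RAB reads, beside -5.09 for all ER-Golgi RABs. RAB34 changed by -5.21, beside -4.67 for all RABs with other or less settled places. The fall in share of each of these compartments was thus no larger than that of a single gene. In normalized counts other members were lower too, with 5 of 12 ER-Golgi RABs and 4 of 8 less settled RABs called lower. A share rises where the other genes fall, so the share of the recycling RABs was higher although 8 of their 13 tested genes were lower in normalized counts.

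Paralogs can also be set against each other within a library. In 7 of 13 pairs the ratio did not overlap between the groups, each with p = 0.1 in the two-sided exact permutation test, or 0.186 with Benjamini-Hochberg adjustment over the 13 pairs, so none passed 0.05, which this design cannot reach. No such count was made over pairs of other genes. Of single protein-coding genes, 36.7% lay below and 22.2% above the EV libraries in every PRL3 library. Whether RAB pairs differ from other pairs was thus not tested. The log2 ratio of RAB5A to RAB5C was -0.34, -1.06 and -0.56 in EV B1, B2 and B3 and 0.54, 0.51 and 0.62 in PRL3 B9, B10 and B11, so RAB5C had more reads than RAB5A in every EV library and fewer in every PRL3 library. The ratio of RAB5A to RAB5B went from -1.06 ± 0.27 to -0.10 ± 0.09 (SD, n = 3). RAB4A had more reads than RAB4B in EV libraries (1.01, 0.49 and 0.24) and fewer in PRL3 libraries (-1.02, -0.53 and -0.50). RAB4B and RAB5C share exon bases with other genes on their strand, where reads are ambiguous and not counted. Ambiguous reads made up 4.5 to 5.0% of uniquely aligned reads in EV and 1.7 to 2.5% in PRL3 libraries. These ratios are not corrected for exon length. Per kb, PRL3 libraries had 400 ± 16.5 for RAB5A and 372 ± 14.6 for RAB5C, and 180 ± 27.4 for RAB4A and 241 ± 10.7 for RAB4B. The ratio of RAB6A to RAB6B went from 2.01 ± 0.17 to 0.91 ± 0.06, and that of RAB1A to RAB1B from -1.57 ± 0.37 to -0.62 ± 0.25. RAB7A against RAB7B (4.11 ± 0.24 and 4.58 ± 0.19) and RAB5B against RAB5C (0.41 ± 0.12 and 0.65 ± 0.03) differed less. The ratio of RAB8A to RAB8B was 3.91 in both groups, with SDs of 0.69 and 0.36, and those of RAB2A to RAB2B, RAB9A to RAB9B, RAB11A to RAB11B, RAB39A to RAB39B and RAB40B to RAB40C overlapped.

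**Figure D5:**
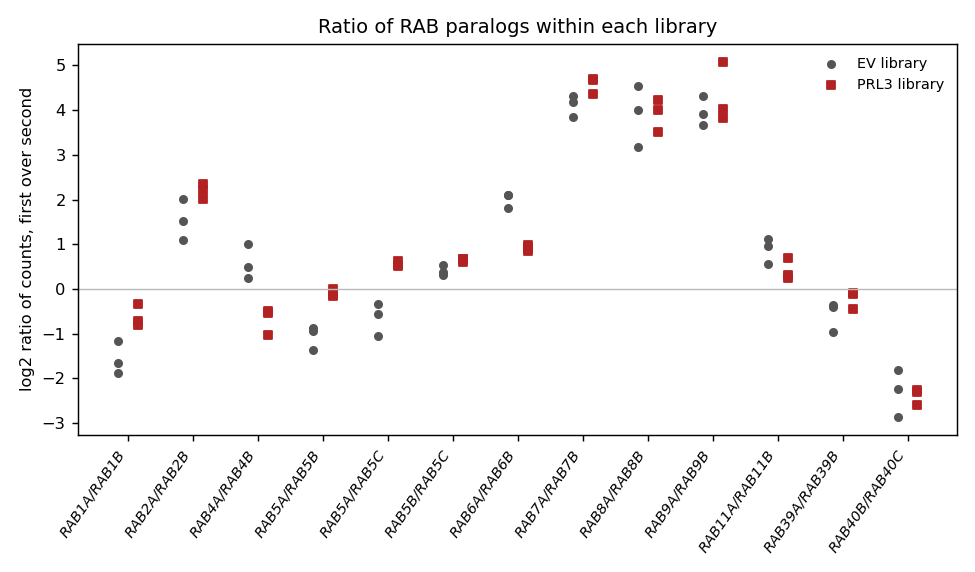
Log2 ratio of normalized counts of the first to the second gene of 13 RAB paralog pairs (x axis) in each EV library (circles) and PRL3 library (squares). The ratios of RAB4A to RAB4B and of RAB5A to RAB5C, not corrected for exon length, change sign between the groups, whereas those of RAB8A to RAB8B overlap.

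The study drew a list of genes from the same libraries by how intronic reads were spread along each gene, and 6 RAB genes are on it (RAB1A, RAB4A, RAB7A, RAB8A, RAB11A and RAB35). Of these, 5 were lower and RAB8A was not called, and 20 of the 48 tested RAB genes outside the list were lower. Over the protein-coding genes tested, 31.7% were lower. The share of all genes on the list, and of lower calls among them, was not computed here. The study reported reduced mRNA levels for most genes whose reads shifted towards the start of the gene. The list was chosen on these libraries and is not independent evidence of a direction.

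Genes that act on RABs were followed by role, 123 tested of 126. Of these, 37 were lower (30.1%) and 15 higher (12.2%), near the 31.7% and 15.1% of protein-coding genes, with a median log2 fold change of -0.06. Of the 9 factors that prenylate and carry RABs, 5 were lower and 1 was higher, with a median of -0.98. RABAC1, a factor that releases RABs from GDI at membranes, had 3168, 4312 and 3202 normalized counts in EV and 490, 935 and 609 in PRL3 (log2 fold change -2.39, standard error 0.23, edgeR adjusted p = 1.27e-05). GDI2 had 12920, 9411 and 8103 in EV and 3020, 3885 and 3929 in PRL3 (-1.49, standard error 0.19). The libraries of both were separated, and the calls held under every alternative tried. The prenyl chaperone PDE6D (-1.11) and the transferase subunit RABGGTA (-0.98) were lower, while the other subunit, RABGGTB, had 13560, 7884 and 12790 in EV and 19500, 22690 and 30170 in PRL3 (1.08, standard error 0.22, edgeR adjusted p = 0.0015). RABGGTB hosts small nucleolar RNA genes in its introns. The escort proteins CHM (947 ± 252 and 1126 ± 116, SD, n = 3) and CHML (2306 ± 1352 and 2505 ± 534) passed no threshold (edgeR adjusted p = 0.34 and 0.786), and neither did RABIF (-0.33).

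Regulators and effectors were mixed, and those named are the lower pair and the higher pair of smallest p in each role, not those of largest fold change. Of 35 GEFs, 8 were lower, among them RAB3IL1 (-1.53), a GEF of RAB3 and RAB8, and RIN1 (-0.93), a GEF of RAB5, and 6 were higher, among them DENND1B (1.00), a GEF of RAB35, and RIN2 (0.71), of RAB5. Of 35 GAPs, 8 were lower, among them EVI5L (-1.90) and TBC1D16 (-0.95), a GAP of RAB4A, and 3 were higher, among them USP6NL (1.00), a GAP of RAB5, and TBC1D8 (0.59). Of 44 effectors, 16 were lower, among them RILP (-1.98), which links RAB7 to dynein, and MICALL2 (-1.42), an effector of RAB8 and RAB13, and 5 were higher, among them FYCO1 (0.86), which links RAB7 to kinesin, and BICD1 (0.76), which links RAB6 to dynein. RILP had 449, 800 and 594 normalized counts in EV and 145, 175 and 146 in PRL3, and FYCO1 had 1668, 1766 and 1981 in EV and 3621, 3283 and 2935 in PRL3. RILP was lower and FYCO1 higher in every PRL3 library than in every EV library. USP6NL had 1895, 1704 and 1820 in EV and 3587, 3700 and 3558 in PRL3. Of the genes named here, with all uniquely aligned reads as the scale, the calls of RIN2, TBC1D8, FYCO1 and BICD1 were lost.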

How the data were processed

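RNA labelled with 4sU was measured by 4sU-seq in 6 A375 libraries, 3 EV and 3 PRL3. Per the submitters' processing notes and the study's methods, reads were checked with FastQC 0.11.3, aligned to GRCh38 with STAR 2.5.1b and counted with HTSeq 0.6.1 over the exons of Ensembl release 91 with the reverse strand setting. The deposited values are these raw counts, which the authors did not normalize, with 1 library per file. Reads aligning to several places or ambiguous between genes were not counted, and the counter's own totals were left out of library sizes and tests.

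Symbols, biotypes and positions came from GENCODE 44, which matched 57532 of 58243 identifiers. PRL3 was tested against EV with edgeR 4.0.16 under R 4.3.3 (filterByExpr by group, TMM scaling, robust quasi-likelihood fit and test), and p-values were adjusted by Benjamini-Hochberg over the 23884 genes kept, with a threshold of 0.05. Standard errors were derived from the F statistic. Alternatives were scaling by RLE, by upper quartile, by library size or by all uniquely aligned reads, DESeq2 1.42.0, limma-voom with limma 3.58.1, 2 other filters on low counts, protein-coding genes alone, an adjusted p of 0.01, counting RAB40AL as a member, and leaving out each library. Exact permutation tests were two-sided, with 20 splits of 3 against 3 and a smallest p of 0.1. The procedure was tested on counts simulated with few changed genes, as many up as down, so that test does not bear on the choice of scaling. Depth was 36532207 to 57952035 counts per library, and limits from a count of 0 (3 counts) cover counting error alone.

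The genes, compartments, roles and lists were chosen with earlier results of these data known. Named genes were RAB1A, RAB1B, RAB5A, RAB5B, RAB5C, RAB6A, RAB7A, RAB11A, RAB11B, RAB27A, RAB32 and RAB38, the 8 lower and 8 higher called RAB genes of smallest p whose groups did not overlap (3 were higher), the 5 with the highest EV level, the GDI, REP and transferase genes, the 2 lower and 2 higher genes of smallest p per role, and PTP4A3. RAB genes without a call are named with values, as are all paralogs. The values of 1 gene that this rule names are not reported here. Promoter sequences are RefSeq's for GRCh38.p14.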

Additional observations from a re-analysis of the deposited data

Results flagged for a closer look

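Reads with a unique alignment but on no annotated exon of their strand enter no comparison of genes. They made up a mean of 66.3% of uniquely aligned reads in PRL3 libraries (SD 3.18, n = 3) and 33.3% in EV libraries (SD 6.75, n = 3). They are listed here because they are a signal beyond the gene counts that was higher than in the control libraries. The lowest PRL3 library (62.8%) stood above the highest EV library (41.1%). How this share bears on the RAB genes was not tested.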

How the results depend on the processing

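Scaling moved the results most. The median log2 fold change over all genes was 0.11 with TMM, 0.07 with RLE, 0.29 with upper quartiles, 0.60 by library size alone and -0.37 with all uniquely aligned reads, and the RAB median moved with it. The difference of the RAB median from that of protein-coding genes was -0.39 with TMM and between -0.34 and -0.45 under the alternatives. Scaling shifts both medians nearly alike, so this difference is no test of scaling. DESeq2 called 27 RAB genes lower and 3 higher, and limma-voom 26 and 3. Depth limits the members with few reads, 9 of which were not tested. No paired analysis was possible because EV and PRL3 libraries carry different numbers (B1 to B3 and B9 to B11).

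Library size alone gave 13 lower and 12 higher RAB genes, 15 lower and 59 higher regulators, and 3078 lower and 9478 higher genes in all. With all uniquely aligned reads, 0 RAB genes and 3 regulators were higher and 67 regulators lower, and 8483 of all genes were lower and 1941 higher. Upper-quartile scaling gave 5 higher RAB genes and 29 higher regulators, and protein-coding genes alone 5 and 32. At an adjusted p of 0.01, 22 RAB genes were lower and 0 higher, 8 regulators were higher, and 2682 of all genes were higher. Leaving out 1 library gave 22 to 26 lower and 0 to 3 higher RAB genes, 22 to 38 lower and 9 to 20 higher regulators, and 4306 to 5856 lower and 3140 to 5894 higher genes. The fewest lower regulators and higher genes came without PRL3 B11, the fewest higher regulators without PRL3 B10 and 0 higher RAB genes without PRL3 B9, whereas 1 was higher without EV B2, PRL3 B10 or PRL3 B11. The cause was not tested.

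The RAB median was -0.36 under upper quartiles, -0.0432 under library size alone, -1.03 with all uniquely aligned reads and -0.36 with protein-coding genes alone. In the same order it was -0.47, -0.15, -1.12 and -0.46 for recycling and surface delivery, -0.28, 0.0374, -0.95 and -0.28 for ER-Golgi, -0.55, -0.23, -1.21 and -0.55 for late endosomes, and 0.0351, 0.34, -0.61 and 0.0349 for regulated secretion. With library size alone and all uniquely aligned reads it was 0.10 and -0.88 for the early endosome, -0.0637 and -1.02 for the less settled RABs and -0.0487 and -1.03 for the melanosome. With at least 10 counts in every library the ER-Golgi median was -0.34, and with 1 count in any library that of the less settled RABs was -0.27. Leaving out 1 library gave medians of -0.54 to -0.34 for ER-Golgi, -0.46 to -0.28 for the early endosome, -0.71 to -0.54 for recycling and surface delivery, -0.76 to -0.66 for late endosomes, -0.72 to -0.39 for the melanosome, -0.80 to -0.33 for the less settled RABs and -0.21 to 0.00711 for regulated secretion.

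Of the RAB genes and the regulators named in the text, those that changed sign had no call in the reported fit, apart from RAB2A. With all uniquely aligned reads these were CHM (-0.24), CHML (-0.37), RAB13 (-0.43), RAB18 (-0.39), RAB21 (-0.35), RAB22A (-0.44), RAB28 (-0.35), RAB39A (-0.41), RAB3A (-0.36), RAB3B (-0.44), RAB43 (-0.22), RAB4B (-0.16), RAB5A (-0.41) and RAB6B (-0.18). With library size alone they were RAB17 (0.19), RAB23 (0.31), RAB26 (0.31), RAB27A (0.0825), RAB27B (0.34), RAB2A (0.11), RAB36 (0.16), RAB39B (0.22), RAB8A (0.48), RAB8B (0.40) and RABIF (0.16). Protein-coding genes alone gave RAB23 0.00445, RAB27B 0.0349, RAB8A 0.17 and RAB8B 0.0922, upper-quartile scaling gave 0.00762, 0.0351, 0.17 and 0.10, and RAB8A was 0.0203 with 1 count in any library and 0.0351 with 10 counts in every library. Leaving out 1 library gave CHML -0.15 to 0.71, RAB13 -0.0838 to 0.33, RAB18 -0.0816 to 0.34, RAB22A -0.055 to 0.17, RAB23 -0.36 to 0.14, RAB27B -0.25 to 0.0104, RAB39A -0.0673 to 0.27, RAB3A -0.21 to 0.64, RAB3B -0.0905 to 0.19, RAB43 -0.0346 to 0.58, RAB5A -0.0511 to 0.33, RAB8A -0.046 to 0.0712 and RAB8B -0.35 to 0.30.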
